A study of Mus musculus with 7 samples.

Results

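The 27 Mb of Chr 8 described here lie inside the ALR segment of NOD.ALRc8(D8Mit293-D8Mit137) mice, and are the stretch to which the study narrowed protection from alloxan by challenging congenic mice with it. Members are the named genes of the array whose record starts between 50800000 and 77799999 on Chr 8. These bounds are in NCBI build 37 and were set on GRCm38 positions without conversion. Of 222 symbols in these bounds, Klf2, Hmox1, Jund, Cpe, Mrpl34 and Ndufa13 were left out by the rule, and 216 of the 25793 symbols of the array remained. For a symbol with several transcript sets, the brightest was used. Transcript sets without a symbol numbered 82 in the bounds and are no members.

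A congenic strain carries a chromosome segment of a donor strain on the background of another strain, so every gene in the segment, with its promoter, has the donor's allele. The donor ALR resists alloxan, a toxin that enters beta cells and makes free radicals there, and its relative NOD is sensitive to alloxan and develops autoimmune diabetes. Idd22 is the diabetes locus that the segment holds. An islet is a cluster of hormone cells with its own dense capillaries, and isolated islets also carry some exocrine cells and, in NOD mice with intact immunity, infiltrating lymphocytes.

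Islets of 2 strains aged 10 to 12 weeks were compared. The first was NOD.129S7(B6)-Rag1tm1Mom/J, here NOD-Rag1-/-, with NOD alleles along the segment and a disrupted Rag1, so that mature T and B cells and insulitis are missing. The second was NOD.ALRc8(D8Mit293-D8Mit137), here NOD.ALRc8, with ALR alleles along the segment and functional Rag1. NOD-Rag1-/- gave 3 pools and NOD.ALRc8 gave 4, each of about 200 islets from 2 mice, and the labels give no sex. Segment and Rag1 genotype both differ between the groups, so their parts in a difference cannot be told apart, and NOD mice with intact Rag1 and NOD alleles of the segment were not analysed here. Probes of the array follow the reference genome, and whether they match the NOD and ALR alleles equally was not tested.

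Values are log2 expression values, and a log2 fold change is NOD.ALRc8 minus NOD-Rag1-/-. The study threshold asks for a log2 fold change beyond 0.5 in either direction and an unadjusted p of at most 0.05, and the adjusted p is that of limma over all transcript sets. Groups are called separate when every pool of 1 strain lies above every pool of the other. The arrays fell into 2 sets by their lower quartile, set A with NOD-Rag1-/- replicates 2 and 3 and NOD.ALRc8 replicate 1 (2.49 to 2.51), and set B with NOD-Rag1-/- replicate 1 and NOD.ALRc8 replicates 2 to 4 (2.65 to 2.68). NOD-Rag1-/- replicate 1 also stood apart in Xist, transcribed from the inactive X (2.56, against 9.69 to 10.28 in the other pools), and in the Y-linked Ddx3y (6.25, against 1.99 to 2.08), so it has the values of male mice and the others those of females. As it is the only NOD-Rag1-/- pool of set B, strain and sex cannot be told apart in any difference given within set B. Igkc, the immunoglobulin kappa constant region, was 3.45 to 3.99 in NOD-Rag1-/- and 10.71 to 11.92 in NOD.ALRc8, while Rag1 itself, which islet cells do not need, was 3.63 to 4.21 and 3.25 to 3.87. Bulk RNA cannot tell fewer cells of a type from less RNA per cell.

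Among the 216 genes, the strain difference was mostly small and went in both directions. The median log2 fold change was -0.023, against 0.0069 over all symbols, with 95 genes above 0 and 121 below. An adjusted p under 0.05 was reached by 0 of 216 genes, where 0.151% of all symbols reached it; 28 had an unadjusted p of at most 0.05 (12.96%, against 10.42% of all symbols). At the study threshold 21 genes passed, 9.72% against a background of 6.11%. Of these 14 were lower in NOD.ALRc8 islets (6.48%, background 2.18%) and 7 higher (3.24%, background 3.94%). The excess over the background was thus on the lower side. Of the 976 Chr 8 symbols outside the bounds, 21 were lower (2.15%) and 40 higher at the same threshold.

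Separate groups gave the same lean without an estimate of spread. In 20 genes every NOD.ALRc8 pool lay below every NOD-Rag1-/- pool (9.26%, background 3.34%), and in 5 every one lay above (2.31%, background 4.55%). The members are also brighter than most of the array, since 155 had a mean above 3.96, the median of all transcript sets. Among these 155, 20 passed the study threshold (12.9%, background 9.03% of symbols above that level), with 14 lower (9.03%) against 3.59% of such symbols. Centring each array on its median, which moved the median of all symbols to -0.11 and that of the members to -0.14, gave 28 genes (12.96%, against 7.67% of all symbols), 24 lower (11.1% against 4.53%) and 4 higher. Without NOD.ALRc8 replicate 1 the count was 31 (14.4%), against 10.1% of all symbols, with 24 lower (11.1% against 4.89%). Without NOD-Rag1-/- replicate 1 it was 21 (9.72% against 7.502%), with 14 lower (6.48% against 3.07%) and 15 of the genes shared. Without NOD-Rag1-/- replicate 2, NOD-Rag1-/- replicate 3 or NOD.ALRc8 replicate 2 it was 14 (6.48%, against 4.04%, 4.13% and 4.53%). Leaving out both pools numbered 1, a setting chosen after seeing the data, gave 39 (18.1% against 12.8%). Of these 26 were lower, where 6.23% of all symbols were. That setting keeps NOD-Rag1-/- pools of set A only and NOD.ALRc8 pools of set B only, so strain and array set cannot be told apart in it. Leaving out NOD.ALRc8 replicate 1 or NOD-Rag1-/- replicate 1 alone leaves 1 of the sets with pools of 1 strain only.

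**Figure D1:**
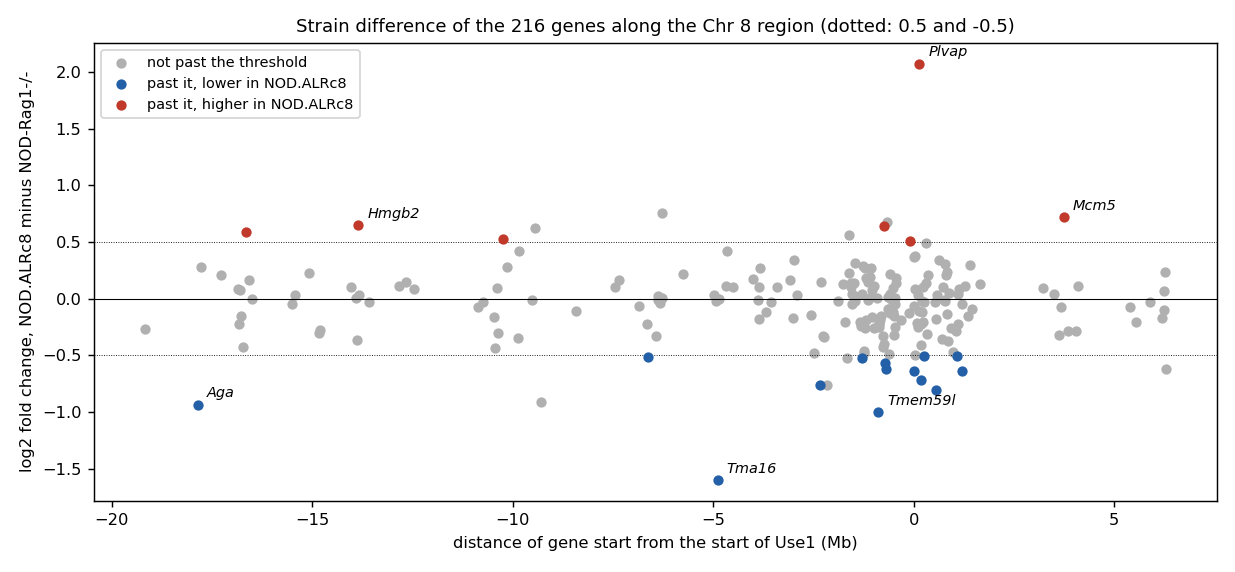
Log2 fold change (NOD.ALRc8 minus NOD-Rag1-/-, y axis) of the 216 genes against the distance of their start from that of Use1 in Mb (x axis); 1 point is 1 gene, blue and red points passed the study threshold and dotted lines mark 0.5 and -0.5. The 14 blue points lie between -1.60 and -0.50, and the only red point above 1 is Plvap at 2.07.

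Called genes were found along the whole stretch, as the plot of differences against distance shows. Genes are dense between 70 and 73 Mb, where 107 of the 216 start, and 13 of these passed the study threshold (12.1%; 10 lower, 3 higher), against 8 of the 109 elsewhere (7.34%). In that slice 85.0% of genes had a mean above the median level of the array, and elsewhere 58.7%. From 50 to 55 Mb 12 genes start and 2 passed, from 55 to 60 Mb 1 of 14, from 60 to 65 Mb 2 of 22, from 65 to 70 Mb 2 of 44, both lower, and from 73 Mb on 1 of 17. Neighbours did not always share a direction. Myo9b, which was higher, ends 6.14 kb before Use1, which was lower. Plvap, higher, starts 131 kb after the start of Use1, and Tmem221, lower, 187 kb after it. Pgpep1 and Lsm4, both lower, are 13.5 kb apart, and Lrrc25, higher, lies on their other side beyond Gdf15. The 81 transcript sets without a symbol that lie between the first and the last member had a median of 0.02, and 0 of them passed the study threshold. These sets are dim, with a median level of 2.86 against 3.96 over all transcript sets. Of the symbols at or below 3.96, 2.065% passed.

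Use1 encodes a SNARE protein of the endoplasmic reticulum that takes part in traffic back from the Golgi apparatus, and had the smallest p of all members. Its transcript set spans Chr 8 71366848 to 71369732. Values were 8.35, 8.39 and 8.56 in the NOD-Rag1-/- pools and 7.90, 7.69, 7.84 and 7.76 in the NOD.ALRc8 pools. The groups were separate, with a gap wider than the spread inside either. The log2 fold change was -0.64 (standard error 0.09, 95% CI -0.86 to -0.42), 1.56-fold lower, with adjusted p = 0.0857 by limma. An exact permutation test, two-sided, put p at 0.0286, the smallest that the 35 splits of 7 pools allow. Separate groups place this p at or near that floor by themselves, so here and below it adds nothing to the separation. Within the array sets the difference was -0.58 in set A and -0.59 in set B, and with any single pool left out it stayed between -0.68 and -0.57. With array weights, the adjusted p of Use1 was 0.0266, and it was the only member under 0.05 in that fit; in the other alternatives it was 0.0530 to 0.721.

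Tma16, named for its association with the translation machinery, had the largest decrease of the 216. It was 4.61, 5.43 and 5.16 in NOD-Rag1-/- and 4.36, 2.91, 3.65 and 2.95 in NOD.ALRc8. All NOD.ALRc8 pools were lower, though replicate 1 of that strain was close to NOD-Rag1-/- replicate 1. The level was 3.03-fold lower, -1.60 on the log2 scale (standard error 0.38, adjusted p = 0.255), and its exact permutation p was 0.0571. The differences were -0.93 in set A and -1.44 in set B.

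On the higher side, Mcm5 and Hmgb2 had a RefSeq promoter and the largest differences after Plvap among the genes past the threshold. Mcm5 is a subunit of the helicase that opens DNA for replication, and Hmgb2 is a DNA-bending chromatin protein abundant in dividing cells. Promoters of Use1, Tma16, Mcm5 and Hmgb2 are shown because these genes carry the smallest p, the largest decrease and the increases in the replication list. Each is 300 bases of GRCm38.p6 from RefSeq, 5′ to 3′ on the gene's strand, with 250 bases before the start site and 50 after it, and capitals mark every match to the motifs searched.
Use1 promoter (chr8:71366598-71366897, plus strand): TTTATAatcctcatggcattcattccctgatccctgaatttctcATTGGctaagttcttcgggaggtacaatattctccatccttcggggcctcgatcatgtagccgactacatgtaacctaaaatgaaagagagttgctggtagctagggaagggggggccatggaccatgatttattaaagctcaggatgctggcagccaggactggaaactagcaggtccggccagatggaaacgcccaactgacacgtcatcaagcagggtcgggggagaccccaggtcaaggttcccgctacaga
Tma16 promoter (chr8:66486481-66486780, minus strand): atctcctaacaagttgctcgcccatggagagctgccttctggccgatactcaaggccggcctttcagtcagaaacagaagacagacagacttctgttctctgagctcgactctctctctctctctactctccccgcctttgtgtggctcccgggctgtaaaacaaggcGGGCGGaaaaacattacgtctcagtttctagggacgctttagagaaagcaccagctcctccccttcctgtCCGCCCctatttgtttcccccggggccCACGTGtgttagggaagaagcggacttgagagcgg
Mcm5 promoter (chr8:75109259-75109558, plus strand): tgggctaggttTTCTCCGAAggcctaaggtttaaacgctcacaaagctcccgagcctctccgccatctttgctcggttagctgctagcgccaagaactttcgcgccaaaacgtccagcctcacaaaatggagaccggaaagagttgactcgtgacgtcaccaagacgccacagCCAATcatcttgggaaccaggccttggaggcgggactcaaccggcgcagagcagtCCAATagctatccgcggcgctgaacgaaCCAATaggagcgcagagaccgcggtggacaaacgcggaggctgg
Hmgb2 promoter (chr8:57511593-57511892, plus strand): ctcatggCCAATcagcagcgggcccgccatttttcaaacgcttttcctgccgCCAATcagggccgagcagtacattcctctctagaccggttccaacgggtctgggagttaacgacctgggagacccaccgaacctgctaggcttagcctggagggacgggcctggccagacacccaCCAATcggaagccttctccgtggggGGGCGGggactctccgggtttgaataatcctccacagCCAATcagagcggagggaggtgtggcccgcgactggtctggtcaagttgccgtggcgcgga
The motifs searched on both strands were the TATA box (TATAAA), the CCAAT box (CCAAT), the GC box (GGGCGG), the E-box (CACGTG), the AP-1 element (TGANTCA), the antioxidant response element (TGACNNNGC) and the GAS element (TTCNNNGAA). They do not overlap each other in these 4 promoters. Mcm5 held 3 CCAAT boxes and 1 GAS element, and Hmgb2 held 4 CCAAT boxes and 1 GC box. Of the 17492 promoters of coding genes, 4.21% held at least 3 CCAAT boxes and 1.34% at least 4. Use1 held 1 TATA box, 250 bases before the start site, and 1 CCAAT box, and Tma16 held 2 GC boxes and 1 E-box. Over all 10 lower genes with a promoter, 7 held a GC box (46.3% of all coding promoters do), 4 a CCAAT box (39.2%), 2 an E-box (7.91%), 1 a TATA box (13.3%), 1 an antioxidant response element (13.1%), and 0 an AP-1 element (7.03%) or a GAS element (7.78%). Among all 153 members with a promoter, 55.6% held a GC box, 45.8% a CCAAT box, 5.88% an E-box and 8.50% a TATA box. An antioxidant response element was held by 17.0% of them, and an AP-1 element and a GAS element by 7.19% each. All motif hits here are matches of letters in a window and were set against no binding data. The windows are those of the reference genome, and the NOD and ALR alleles of these promoters were not examined.

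**Figure D2:**
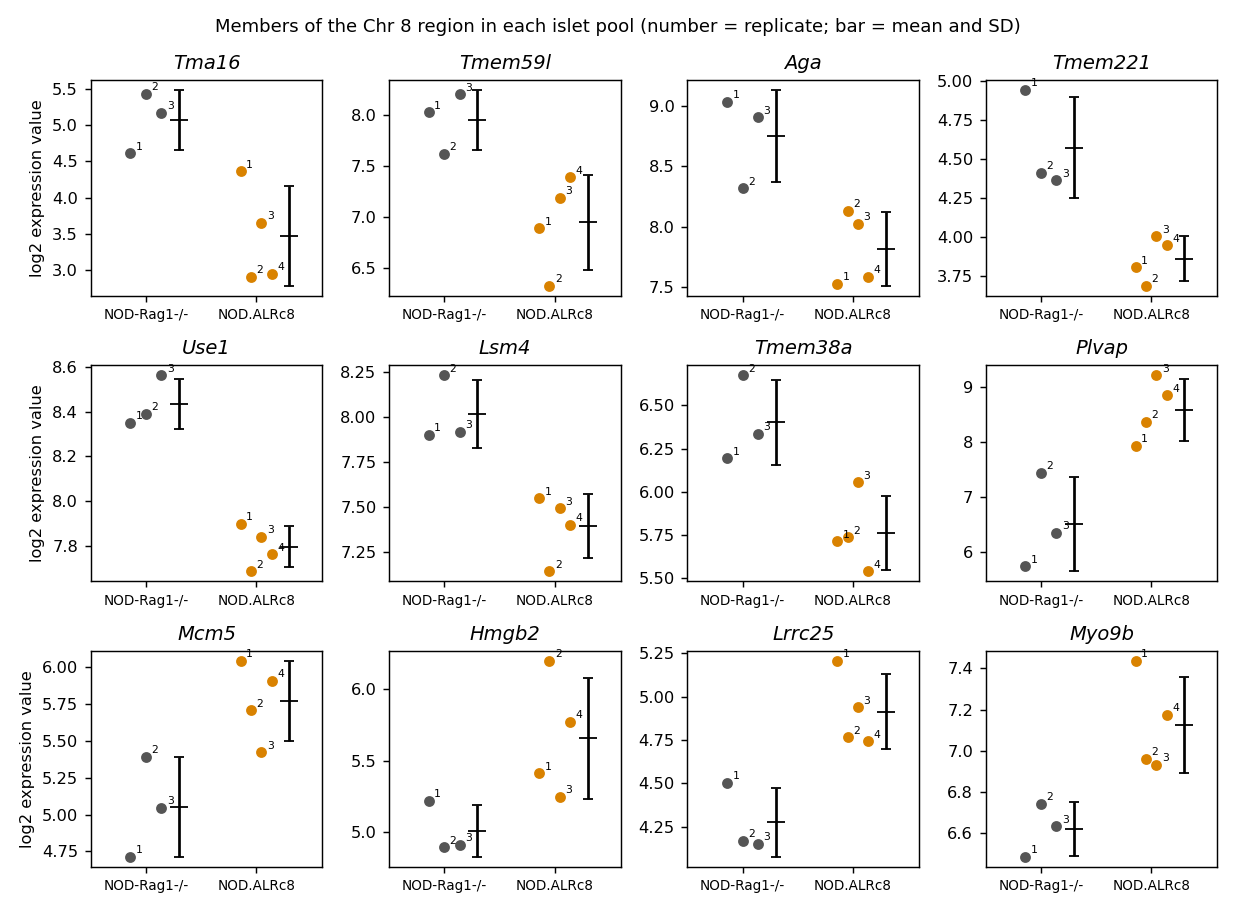
Log2 expression value (y axis) of 12 genes in each pool; grey points are the 3 NOD-Rag1-/- pools, orange points the 4 NOD.ALRc8 pools, numbers give the replicate and bars the mean and SD. In each panel every point of 1 strain lies above every point of the other, with 7 genes lower and 5 higher in NOD.ALRc8.

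The counts of the role lists below stand against the same background over all symbols, 2.18% lower and 3.94% higher at the study threshold, and 3.34% lower and 4.55% higher with separate groups. Among all 216 members the shares were 6.48% lower and 3.24% higher at the study threshold. With separate groups they were 9.26% lower and 2.3% higher. The lists are short, so 1 gene moves their shares widely. They were also chosen with earlier results of these data known, so their shares are a description and no test of the lists. Of 18 genes of secretion, vesicle and granule traffic, 4 passed the study threshold as lower (22.2%, background 2.18%) and 0 as higher, 6 were separate and lower (33.3%, background 3.34%), and the list's median was -0.10 (-0.13 with quantile normalization, -0.22 with centring). Besides Use1 the 4 were Tmem59l, Slc18a1 and Tmem38a. The last is an ion channel that was counted in this list though it is not itself a traffic protein.

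Tmem59l, a membrane protein of the secretory pathway, was 8.02, 7.62 and 8.20 in NOD-Rag1-/- and 6.89, 6.33, 7.19 and 7.39 in NOD.ALRc8. The groups were separate, at -1.0 on the log2 scale (standard error 0.27, adjusted p = 0.316), and -1.02 and -1.06 within sets A and B. Tmem38a, a cation channel of the endoplasmic reticulum, was 6.19, 6.68 and 6.34 against 5.71, 5.74, 6.06 and 5.54. Its groups were separate too, at -0.64 (standard error 0.16, adjusted p = 0.287). Slc18a1, the vesicular monoamine transporter of neuroendocrine granules, was 5.76, 6.55 and 6.54 against 5.72, 4.83, 5.76 and 5.76. Here the groups met, since 3 pools share the value 5.76, and the log2 fold change of -0.76 (adjusted p = 0.499) no longer passed without NOD-Rag1-/- replicate 2 or 3 or NOD.ALRc8 replicate 2. The record of Slc18a1 overlaps that of its neighbour Atp6v1b2.

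Atp6v1b2, a subunit of the proton pump that acidifies granules, was 10.09, 10.52 and 10.24 against 10.09, 9.82, 9.93 and 9.98, with groups that all but touch. Clcn3, a chloride and proton exchanger of vesicles, was 6.09, 6.38 and 6.42 against 6.04, 5.65, 6.01 and 5.75. Eps15l1, of clathrin-coated pits, was 7.79, 7.95 and 7.98 against 7.67, 6.90, 7.65 and 7.52. These 3 were lower and separate with log2 fold changes of -0.33, -0.43 and -0.47, all short of 0.5. Genes of the exocytosis machinery itself lay near 0, with Rab3a, the GTPase of secretory granules, at -0.087 and Unc13a, which primes vesicles for fusion, at -0.027. Cope, a coat protein of Golgi vesicles, was at 0.27 and Spcs3, of the signal peptidase, at 0.087 (95% CI -0.27 to 0.45), and the latter turned to -0.033 with centring.

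Metabolic genes were the largest list. Of 25 genes of lipid, sugar and amino acid metabolism, 2 were lower (background 2.18%) and 0 higher at the study threshold, 4 were separate and lower (16.0%, background 3.34%), and the median was -0.11 (-0.12 and -0.23 under quantile normalization and centring). Aga, the lysosomal enzyme that frees asparagine from glycoproteins, was 9.03, 8.32 and 8.90 in NOD-Rag1-/- and 7.53, 8.13, 8.02 and 7.59 in NOD.ALRc8. It was lower in every NOD.ALRc8 pool, by -0.93 (standard error 0.23, adjusted p = 0.262; 1.91-fold), with -1.08 in set A, -1.12 in set B and an exact permutation p of 0.0286. Pgpep1, which removes pyroglutamate from the start of peptides, was 6.30, 6.67 and 6.59 against 6.29, 5.70, 5.98 and 5.84. NOD.ALRc8 replicate 1 came within 0.01 of the lowest NOD-Rag1-/- pool, and the difference of -0.56 (adjusted p = 0.353) did not pass without NOD-Rag1-/- replicate 2 or NOD.ALRc8 replicate 2.

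Lpl, the lipase that frees fatty acids from circulating lipoproteins, was 9.54, 9.96 and 9.79 against 9.24, 9.10, 9.46 and 9.34. Its groups were separate, and the log2 fold change of -0.48 (95% CI -0.79 to -0.16, exact permutation p = 0.0286) was just under the threshold. Isyna1, which makes inositol, was 8.01, 7.85 and 8.01 against 7.84, 6.69, 7.78 and 7.84; the groups were separate, and the mean difference of -0.42 came mostly from NOD.ALRc8 replicate 2. Mpv17l2, a mitochondrial membrane protein, was at -0.48 with overlap. Sc4mol (now Msmo1), of cholesterol synthesis, was at -0.23, and the arylamine acetyltransferases Nat1, Nat2 and Nat3 at -0.013, 0.10 and 0.27.

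Of 19 genes of transcription, RNA and translation, Tma16 and Lsm4 were lower at the study threshold (10.5%, background 2.18%) and 0 were higher. In this list 3 were separate and lower (15.8%, background 3.34%), and the median was -0.16 (-0.13 and -0.28 under the other scalings). Lsm4, a subunit of the ring of Sm-like proteins that binds U6 RNA in the spliceosome, was 7.90, 8.23 and 7.91 against 7.55, 7.14, 7.49 and 7.40. The gap between the groups was about as wide as the spread inside each, and the difference was -0.62 (standard error 0.14, adjusted p = 0.207; 1.54-fold), -0.53 in set A and -0.56 in set B, with an exact permutation p of 0.0286. Ccdc124, a ribosome-associated protein, was 5.98, 6.31 and 6.24 against 5.88, 5.96, 5.90 and 5.67 and separate by 0.02. Nr2c2ap was at -0.48 with overlap. Upf1, the helicase of nonsense-mediated decay, was at -0.16, and Med26, of the Mediator complex, at 0.084.

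The KRAB zinc finger genes, a fast-evolving family of repressors, lay on both sides of 0, from -0.81 to 0.56. Of 9, 1 was lower (11.1%, background 2.18%), and the median was -0.02 (-0.12 with quantile normalization). Zfp617 was 6.37, 6.87 and 6.72 against 6.37, 5.91, 5.61 and 5.50, a difference of -0.81 (adjusted p = 0.347) with a tie at 6.37 between a pool of each strain. Zfp869 was 7.31, 7.16 and 7.14 against 5.92, 6.88, 6.97 and 6.96, separate, but 1 pool at 5.92 carried much of its -0.52. Zfp930 was at -0.76 and Zfp963 at 0.56, neither past the threshold. Single pools decided both: Zfp930 passed at -0.95 without NOD.ALRc8 replicate 1 and was -0.46 without replicate 3 of that strain, and Zfp963 passed at 0.73 without NOD.ALRc8 replicate 2 and was 0.32 without replicate 3. Such genes are close copies of each other, so their probes may share signal.

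In the list of DNA replication, repair and chromatin (13 genes), Mcm5 and Hmgb2 were higher (15.4%, background 3.94%) and 0 lower at the study threshold, while the list's median was -0.21 (-0.22 and -0.33 under the other scalings). The other members lay between -0.49 and 0.28. Mcm5 was 4.71, 5.39 and 5.05 in NOD-Rag1-/- and 6.04, 5.71, 5.42 and 5.91 in NOD.ALRc8. Its groups were separate by 0.03, at 0.72 (standard error 0.20, adjusted p = 0.346; 1.65-fold), 0.82 in set A and 0.96 in set B. Hmgb2 was 5.22, 4.89 and 4.91 against 5.41, 6.20, 5.25 and 5.77, a difference of 0.65 (adjusted p = 0.471), and NOD.ALRc8 replicate 3 was within 0.03 of NOD-Rag1-/- replicate 1. It no longer passed without NOD-Rag1-/- replicate 2 or 3 or NOD.ALRc8 replicate 2 or 4, and a dimmer second transcript set of Hmgb2 gave 0.11.

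Beside these 2 genes, 4 of 15 proliferation markers were higher at the study threshold. Their summed level, taken on the linear scale, was 592 to 714 in NOD-Rag1-/- and 649 to 956 in NOD.ALRc8. Mki67, a marker of cycling cells, differed by 1.25 (adjusted p = 0.477), but other subunits of the helicase of Mcm5 differed by 0.03 (Mcm2), 0.08 (Mcm3) and 0.46 (Mcm6). The part of cycling cells in the differences of Mcm5 and Hmgb2 was not tested. Babam1, of the BRCA1-A repair complex, went the other way and was separate, at 9.08, 9.28 and 9.40 against 9.07, 8.30, 8.88 and 8.78 (-0.49).

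The vascular, stromal and matrix list held the largest difference of all. Of 21 genes, 2 were higher (9.52%, background 3.94%) and 1 lower (4.76%, background 2.18%), and the median was 0.14 (0.01 and 0.02 under the other scalings). Plvap forms the diaphragms of capillary fenestrae, which islet capillaries have in number. Its transcript set spans Chr 8 71497753 to 71511769. It was 5.75, 7.45 and 6.36 in NOD-Rag1-/- and 7.93, 8.37, 9.22 and 8.85 in NOD.ALRc8. All NOD.ALRc8 pools were higher, and the spread inside NOD-Rag1-/- was wide. The difference was 2.07 (standard error 0.45, 95% CI 1.02 to 3.13, adjusted p = 0.205 by limma), 4.21-fold, with an exact permutation p of 0.0286. It was 1.03 in set A and 3.06 in set B, and between 1.69 and 2.54 with any pool left out.

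Endothelial markers moved with Plvap. Of 16, 12 were higher at the study threshold and 0 lower, and their summed level was 605 to 1178 in NOD-Rag1-/- and 1782 to 2319 in NOD.ALRc8. Within NOD-Rag1-/-, the pools have the same order in Plvap and in that sum, with replicate 2 highest and replicate 1 lowest. Within NOD.ALRc8 the order was not the same, since replicate 4 was above replicate 2 in Plvap but below it in the sum (2256 and 2270). Among the 16 markers the median difference was 1.22, and only Kdr (2.63), a VEGF receptor, and Ptprb (2.25) differed by more than Plvap. Cdh5, the cadherin of endothelial junctions, differed by 1.77, while Esam, Vwf, Sox17 and Cldn5 differed by 0.22, 0.17, 0.067 and 0.0083. Whether Plvap differs beyond the number of endothelial cells was not tested. Other genes of vessels in the list did not share its size, with Vegfc, a growth factor of lymph vessels, at 0.21, F2rl3, a thrombin receptor, at 0.30, and Ednra, the endothelin receptor of smooth muscle, at -0.62 with overlapping groups. Ednra rested on single pools, as it passed the threshold at -0.99 without NOD.ALRc8 replicate 1 and was -0.35 without replicate 2 of that strain.

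Myo9b, an unconventional myosin, was 6.48, 6.74 and 6.63 against 7.44, 6.96, 6.93 and 7.18. It was separate at 0.51 (standard error 0.14, adjusted p = 0.351), with 0.75 and 0.54 in sets A and B, and fell under the threshold without NOD-Rag1-/- replicate 1 or NOD.ALRc8 replicate 1 or 4. With centring Myo9b was at 0.39, also under the threshold. Hapln4, which links hyaluronan to proteoglycans, was lower, at 7.45, 7.54 and 7.63 against 7.03, 6.50, 7.42 and 7.12. Its log2 fold change of -0.52 (adjusted p = 0.499) passed in only 1 of the 7 fits that leave out a pool, that without NOD.ALRc8 replicate 3.

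**Figure D3:**
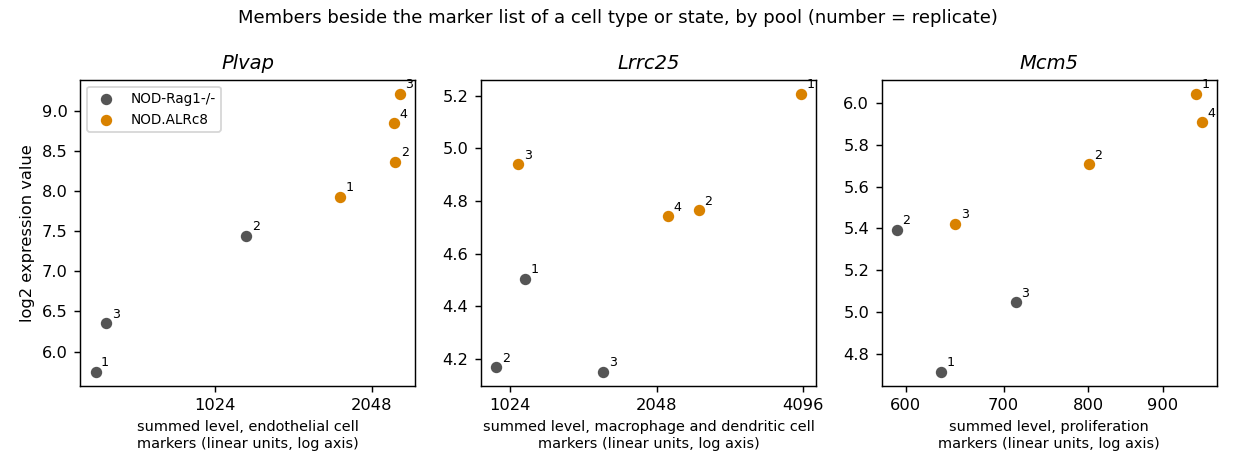
Log2 expression value (y axis) of Plvap, Lrrc25 and Mcm5 in each pool against the summed linear level of endothelial, macrophage and dendritic cell, or proliferation markers (x axis, log scale); grey is NOD-Rag1-/-, orange NOD.ALRc8 and numbers give the replicate. The strains are separate on both axes for Plvap (sums of 605 to 1178 and 1782 to 2319), and on the y axis only for Lrrc25 and Mcm5.

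Of 19 immune and interferon genes, 1 was higher at the study threshold (5.26%, background 3.94%) and 0 lower, and the median of 0.11 (0.09 with quantile normalization) turned to -0.01 with centring. Lrrc25, a membrane protein of myeloid cells, was 4.50, 4.17 and 4.15 against 5.21, 4.77, 4.94 and 4.74. Every NOD.ALRc8 pool was higher, with a difference of 0.64 (standard error 0.15, adjusted p = 0.243; 1.56-fold), 1.05 in set A and 0.31 in set B, and an exact permutation p of 0.0286. With quantile normalization the difference of Lrrc25 was 0.49, just under the threshold. Ifi30, a lysosomal reductase of antigen processing, was 8.36, 9.27 and 9.09 against 9.78, 8.79, 8.50 and 9.42, a difference of 0.22 (95% CI -0.61 to 1.05) that turned to -0.055 without NOD-Rag1-/- replicate 1. Jak3, the kinase of cytokine receptors on lymphocytes, was 5.76, 5.69 and 5.30 against 6.51, 5.76, 5.64 and 6.41, at 0.50 with overlap. Il12rb1, a chain of the interleukin receptors of T cells, was at -0.0015, and Rfxank, a subunit of the factor that drives MHC class II genes, was lower and separate at 6.87, 7.06 and 6.94 against 6.78, 6.06, 6.50 and 6.63 (-0.46).

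Those values stand beside large differences in the markers of immune cells. Of 17 T cell markers 15 were higher at the study threshold, with sums of 364 to 566 and 1054 to 3237, and of 13 B and plasma cell markers 12 were, with sums of 168 to 209 and 2738 to 7534. Of 15 macrophage and dendritic cell markers 8 were higher and 0 lower, with sums of 957 to 1592 and 1063 to 4061 that overlap between the strains, unlike the values of Lrrc25. The part of these cells in the differences of the list was not tested.

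The 14 receptors, channels and neuroendocrine genes had 0 members past the study threshold in either direction and 0 with separate groups. Their median was -0.02 (-0.09 and -0.14 under the other scalings), and the range was -0.40 to 0.42. Gdf15, a hormone of cell stress, was 4.47, 4.88 and 4.59 against 4.47, 4.17, 3.89 and 4.47 (-0.40). Npy1r, a receptor of neuropeptide Y, was at 0.42, and its neighbour Npy5r at 0.11. Nr3c2, the mineralocorticoid receptor, was at -0.21, and Crtc1, a coactivator of cAMP signalling, at -0.26. Rasd2, a Ras-like GTPase, was 6.06, 6.41 and 6.11 against 8.13, 5.11, 4.96 and 5.43, so that 1 pool lay far above and the other NOD.ALRc8 pools below every NOD-Rag1-/- pool.

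**Figure D4:**
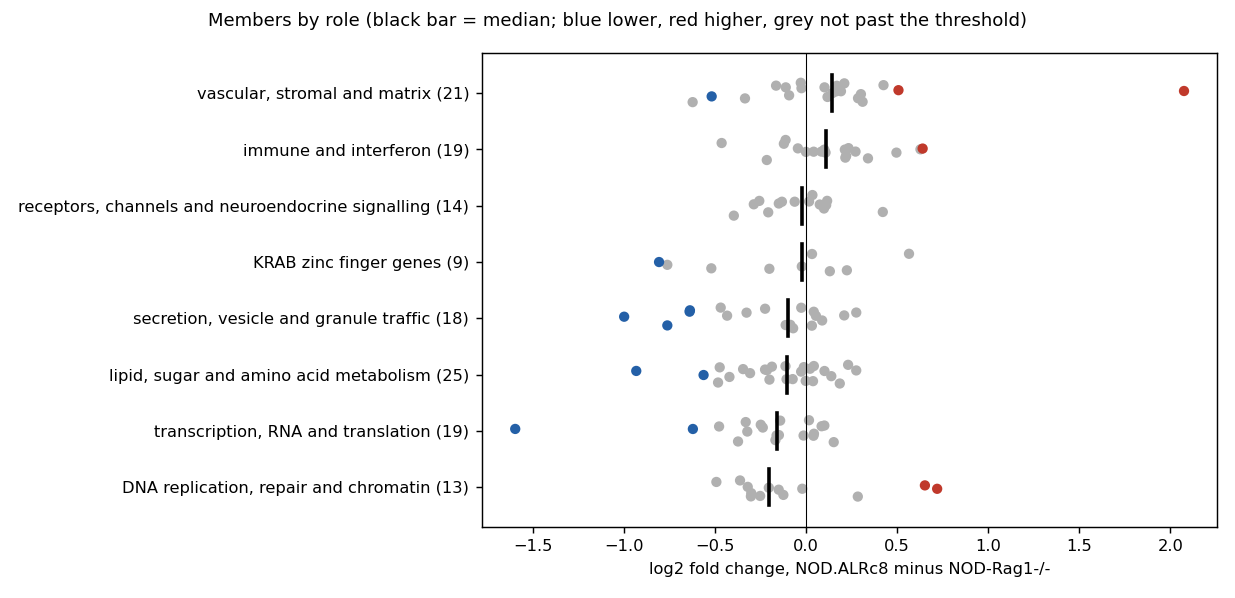
Log2 fold change (x axis) of the members of each role list (y axis, number of genes in parentheses); points are genes, black bars the medians, and blue and red points passed the study threshold as lower and higher. Medians run from -0.21 to 0.14, and the traffic list has 4 blue points and no red one.

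The other 78 genes are in no role list, and 4 of them were lower (5.13%, background 2.18%) and 2 higher (2.56%, background 3.94%). Tmem221, a membrane protein, was 4.95, 4.41 and 4.36 against 3.81, 3.69, 4.005 and 3.95, separate at -0.71 (standard error 0.16, adjusted p = 0.233), with -0.58 in set A, -1.07 in set B and an exact permutation p of 0.0286. The record 1700030K09Rik was 5.30, 5.19 and 5.13 against 4.79, 4.50, 4.69 and 4.82, at -0.51 (adjusted p = 0.192); it missed the threshold without NOD-Rag1-/- replicate 1 or NOD.ALRc8 replicate 2, and its end overlaps that of Cherp. Klhl2, an adaptor of the Cul3 ubiquitin ligase, was 6.88, 7.20 and 6.99 against 6.87, 6.78, 6.29 and 6.08, separate by 0.01. Its difference of -0.52 (adjusted p = 0.514) did not pass without any 1 of the NOD-Rag1-/- pools or without NOD.ALRc8 replicate 3 or 4.

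Further genes of this kind were named after their values were seen. Glt25d1 (now Colgalt1), which adds galactose to collagen, was at -0.50 with NOD.ALRc8 replicate 1 among the NOD-Rag1-/- pools, and passed only without that pool when 1 was left out. Gm15758 and Gm16178, predicted genes, were at 0.59 and 0.52 with overlap, and each passed in 2 of the 7 fits that leave out a pool. They failed without any 1 of the NOD-Rag1-/- pools or NOD.ALRc8 replicate 2 or 4 for the former, and without NOD-Rag1-/- replicate 2 or 3 or NOD.ALRc8 replicate 2, 3 or 4 for the latter. Besides Zfp930, Zfp869, Zfp963 and Ednra above, genes past 0.5 in size but not at the threshold were Anxa10 at -0.91, Gm10663 at 0.75, Gm11175 at 0.68 and Ddx60, an interferon-induced helicase, at 0.63, all with overlap. Of these 4, Anxa10 passed at -1.26 without NOD.ALRc8 replicate 1 and Gm11175 at 1.33 without NOD-Rag1-/- replicate 1. In all, 19 genes short of the threshold passed it with 1 pool left out, for which no share over all symbols is given here. Of these 19, 12 passed without NOD.ALRc8 replicate 1. Among those named above, Ednra, Zfp930, Anxa10, Babam1, Eps15l1, Mpv17l2, Npy1r, Nr2c2ap, Rasd2 and Rfxank did so without that pool, Lpl and Clcn3 without NOD-Rag1-/- replicate 1, and Jak3 without NOD.ALRc8 replicate 3. Bst2, an interferon-induced membrane protein next to Plvap, was at -0.41.

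Of the 21 genes at the study threshold, 11 passed in each of the 7 fits that leave out a pool: Tma16, Tmem59l, Aga, Zfp617, Tmem221, Tmem38a, Use1, Lsm4, Lrrc25, Mcm5 and Plvap. How many of all symbols pass in all 7 fits is not given here, so the 11 have no background to stand against. Markers of acinar cells, the exocrine cells around islets, also separated the strains, with 15 of 18 higher and sums of 649 to 6990 in NOD-Rag1-/- and 9949 to 44517 in NOD.ALRc8, whereas 0 of 15 beta cell markers passed in either direction (sums of 19383 to 24234 and 16541 to 29338). Of 11 markers of alpha, delta and PP cells, the other hormone cells, 2 were lower and 0 higher (sums of 25174 to 26673 and 22691 to 27122), and of 12 duct cell markers 1 was lower and 0 higher (2074 to 2998 and 1484 to 3401). The part of these cells in the lower genes was not tested. In RefSeq, 194 of the 216 genes were found at the same place; Tufm and Hmgn2 are placed on other chromosomes there, so their records here may be copies.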

How the data were processed

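Islet RNA of 3 NOD-Rag1-/- and 4 NOD.ALRc8(D8Mit293-D8Mit137) pools was hybridised to Affymetrix Mouse Gene 2.0 ST arrays. The authors deposited log2 expression values computed by RMA (version not given in the sources used here), which corrects background, normalizes quantiles and summarizes probes. The 7 deposited arrays did not have the same distribution, however, as their medians ran from 3.82 (NOD-Rag1-/- replicate 2) to 4.07 (NOD.ALRc8 replicate 4). The deposited table that gives symbols and GRCm38 positions also holds the authors' log2 fold changes and p-values of the comparison, which were not used. Columns of other series numbered 0.

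Strains were compared with limma 3.58.1 (R 4.3.3; lmFit and eBayes, no block) on 34351 annotated transcript sets, with Benjamini-Hochberg adjustment over all; 121 sets without annotation were left out, and no filter on dim sets was used. The fit was tested on simulated data. Exact two-sided permutation tests used the absolute difference of means over 35 splits, and their p was not adjusted over the members. Tables were made with Python 3.11.15, pandas 2.3.3 and numpy 2.4.6, and plots with matplotlib 3.10.9. Arrays have no depth; precision is limited by the number of pools, and p-values measure only the spread between these pools.

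Genes named are the 10 highest and 10 lowest past the study threshold with separate groups (5 higher passed), the 5 with the smallest p, up to 3 of each of 8 role lists by size of change, and the 6 brightest; further members are given as examples of their list or were chosen after their values were seen. Members and lists were chosen with earlier results of these data known. Alternatives were quantile normalization, median centring, brighter sets, the methods' t-test with equal and unequal variances, a trend and robust fit, array weights, each pool left out, a replicate block, a block for array sets, other bounds and thresholds, and the mean over the sets of a symbol.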

Additional observations from a re-analysis of the deposited data

Results flagged for a closer look

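In the 34 named genes, the highest and lowest of the 4 NOD.ALRc8 pools were compared with the other 3 by Dixon's test, which chance passes in about 1 in 20 groups. In 3 genes a pool stood apart. Rasd2, a Ras-like GTPase, was 8.13 in NOD.ALRc8 replicate 1, the highest, against 4.96 to 5.43 in the other pools of that strain. Ddx60, an interferon-induced helicase, was 5.29 in NOD.ALRc8 replicate 2, the highest, against 4.37 to 4.43. Slc18a1, the vesicular monoamine transporter, was 4.83 in NOD.ALRc8 replicate 2, the lowest, against 5.72 to 5.76. In Ddx60 and Slc18a1 the other 3 pools hold a repeated value. Dixon's test assumes values without ties, so the rate of 1 in 20 may not hold for these genes.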

How the results depend on the processing

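The number of genes at the study threshold was 21 and ranged from 14 to 31 with each pool left out in turn (4.04% to 10.1% of all symbols; lowest without NOD-Rag1-/- replicate 2, NOD-Rag1-/- replicate 3 or NOD.ALRc8 replicate 2, highest without NOD.ALRc8 replicate 1). It was 36 with array weights (13 higher and 23 lower, where 10.26% of all symbols passed). Without both pools numbered 1 (chosen after seeing the data) it was 39 (12.79% of all symbols). With a block for array sets it was 17 (7.87% against 5.07% of all symbols), with 5 higher, and 12 lower (5.56% against 1.03%). With quantile normalization it was 19 (8.8% against 6.21%), and 15 of these were shared with the main fit. It was 2 at an absolute log2 fold change over 1, and 606 of 25793 symbols were beyond 1 in size whatever their p. By the methods' t-test with equal and unequal variances it was 14 and 15 (4.07% and 3.94% of all symbols). After Benjamini-Hochberg adjustment the methods' t-test called 0 members. By adjusted p, 0 genes became 1 with array weights (Use1), 1 under 0.1 and 2 under 0.2, and stayed 0 in every fit with a pool left out. The median of -0.023 became -0.14 with median centring, and ranged from -0.050 to -0.0077 with a pool left out. Separate groups, 25 in all (11.6%, against 7.89% of all symbols), became 27 to 64 with each pool left out. They were 27 without NOD.ALRc8 replicate 4 (12.5% against 9.22%), 64 without NOD-Rag1-/- replicate 1 (29.6% against 24.4%), 55 without NOD.ALRc8 replicate 1 (25.5% against 19.9%) and 104 without both pools numbered 1 (48.1% against 40.1%). The count of separate groups has no value under other tests, weights or blocks. Without both pools numbered 1, strain and array set coincide, so their parts in the counts of 39 and 104 cannot be told apart.

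Replicate numbers are in the labels of both strains but nothing says that they pair pools. Deviations of same-numbered pools correlated at -0.38, -0.14 and -0.11, and no pool correlated best with its own number. With the replicate block 11 genes passed the study threshold (5.09%, against 3.59% of all symbols), 3 higher and 8 lower, and 10 of them were shared.

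Of 34 named genes, 31 kept their direction in every alternative run. Spcs3 turned to -0.033 with median centring and -0.027 with a block for array sets. Ifi30 turned to -0.0040 with array weights, -0.055 without NOD-Rag1-/- replicate 1 (0.43 without NOD.ALRc8 replicate 3) and -0.27 without both pools numbered 1. Rasd2 turned to 0.028 without NOD.ALRc8 replicate 3 (-1.03 without replicate 1) and 0.41 with a block for array sets. The causes were not tested. Over 611 alternatives of the named genes, 509 kept the side of the threshold, 57 lost it and 38 gained it. Dim sets limit what can be seen, since 61 members lie at or below the median level of the array.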
